A study of Mus musculus with 1115 samples.

Results

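Radial glia of the embryonic mouse cortex were set side by side by their level of Btg2, a transcript that marks progenitors on the way to a division that yields neurons. The cells were those classed by the authors as RGCs (radial glial cells), sorted as positive for the Hes5 reporter and placed in the authors' clusters 0, 1 and 3. Within each sort day with at least 15 such cells they were ranked by the authors' normalized Btg2 value, and the rank was divided into 3 parts, with both outer parts of the same size. The highest part is called the high side and the lowest part the low side. Of 1115 cells in the series 45.47% were ranked and 29.96% were compared, with 5, 13, 73 and 76 cells in each side on the 4 sort days used, and the 7, 15, 73 and 78 cells between them served as a middle group. Both sides were chosen by Btg2 alone, so the Btg2 values describe the choice and were not tested.

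Btg2, also known as Tis21 or PC3, is an antiproliferative protein of the BTG/TOB family that binds the CCR4-NOT deadenylase complex and restrains passage from G1 to S phase. In the ventricular zone it is switched on in progenitors that will produce neurons or intermediate progenitors at their next division, and it is low in radial glia that divide to renew themselves. It is also an immediate early gene and a target of p53, so stress and DNA damage can raise it in other settings.

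The gene lies on mouse chromosome 1 from 134075170 to 134079120 on the minus strand (build GRCm38, GENCODE vM21) and its longest coding transcript has 2 exons. The promoter is shown because Btg2 is the gene that separates the groups and because its inducers were examined below. The RefSeq window of the 250 bases before the annotated start (GRCm38.p6, chr1:134079156-134079405, minus strand, outside the GENCODE gene) reads 5′ to 3′, with a cyclic AMP response element in capitals:
Btg2 promoter: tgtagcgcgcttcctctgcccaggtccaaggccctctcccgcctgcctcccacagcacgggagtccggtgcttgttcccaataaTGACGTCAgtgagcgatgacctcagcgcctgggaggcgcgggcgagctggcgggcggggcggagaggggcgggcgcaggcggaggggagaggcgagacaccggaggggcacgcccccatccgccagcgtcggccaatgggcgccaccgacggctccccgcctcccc
The element TGACGTCA, searched on both strands, lay at bases 85 to 92 of the window. It was held by 1.55% of 32851 RefSeq promoters cut to the same length. The E-box CANNTG had no match in the window, against 66.2% of promoters with a match, and the p53 half-site had none, against 7.13%. A match or its absence describes the letters of this window only.

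All cells came from the cerebral cortex of C57BL/6 embryos at embryonic day 13.5, electroporated in utero with a plasmid in which the CAG promoter drives mRFP and the Hes5 promoter drives GFP (genotype CAG-mRFP;Hes5p-GFP). Cells with both proteins form the Hes5_GFP group (65.56% of the series), and cells with mRFP alone form the CAG_mRFP group (34.44%). Electroporation reaches only the cells lining the ventricle, and a GFP that outlasts the activity of its promoter can label daughter cells. Each cell is a library made with a modified Smart-seq2 protocol without molecular identifiers.

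The sort day was the replicate. The 4 days are numbered in date order, and days 3 and 4 held 88.56% of the ranked cells. The cell table names no embryo, so p-values over days measure the spread between sort sessions. Summed counts per day and side ran from 3784800 to 27507181. Day 2 stood apart in depth: the median total count per cell was 958706 in its high side and 135290 in its low side, whereas on day 3 it was 265869 and 239969, and on day 4 it was 333486 and 308532. Cells were ranked within days and not within plates, so the sides of a day can differ in their plates. In the plate of day 2 ranked alone, with 9 cells a side, the medians were 124870 and 100940. Day 1 stood apart in its reporter, with mRFP at 40019 CPM (counts of a gene per 1000000 counts) in the low side and 106760 in the high side, against 126.2 to 2514 in the other days and sides. The part of depth, plate and reporter load in the values of days 1 and 2 was not tested.

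The label of the cells held against their markers. Sox9 had a read in 98.8% of the ranked cells, Pax6 in 94.9%, Vim in 97.04% and the glutamate transporter gene Slc1a3 in 87.97%. Hes5, the gene whose promoter drove the sorting reporter, had a read in 50.5%. Eomes, which defines intermediate progenitors, had a read in 4.93% of the ranked cells and in 77.9% of the cells classed as IPCs (intermediate progenitor cells) in the same group. The neuronal transcription factor gene Neurod6 was at 6.07 CPM in the ranked cells and at 3437 CPM in the Hes5_GFP excitatory neurons (ENs). It had a read in 20.7% of the ranked cells and 97.8% of the ENs. The neuronal gene Tubb3 had a read in 33.3% of the ranked cells (58.9 CPM) and 97.8% of the ENs (1627 CPM). For other cell types, counts were present for 1 of 5 microglia genes and 2 of 5 genes of Cajal-Retzius neurons. They were present for 2 of 4 pericyte genes and 3 of 4 meningeal fibroblast genes. The lists for blood vessel lining, red blood cells and interneurons were complete. Among the counted genes of these lists, none reached 5 CPM in the high or the low side. The largest sum of a list was 5.55 CPM, for meningeal fibroblasts in the high side. The middle group carried more, with 49.7 CPM over the endothelial list (3 genes at 5 CPM or more) and 9.45 CPM over the erythroid list (1 gene), and the part of these transcripts in comparisons with the middle group was not tested.

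Btg2 was a rare transcript in radial glia. Only 37.9% of the ranked cells had a read (95% exact Clopper-Pearson interval 33.6% to 42.3%, counting error only). The share was 41.2% on day 1, 48.8% on day 2, 34.7% on day 3 and 38.7% on day 4. Cells without a read made up 62.1% of the total, so the low side held no cell with a read on any day, which the ranking fixed, and was a part of the cells at 0 taken in a fixed arbitrary order. In the high side every cell had a read, and the median of its single cells was 163.1 CPM (lowest 8.66, highest 1071). Summed by day, Btg2 in the high side was 301.5 CPM on day 1, 248.7 on day 2, 213.7 on day 3 and 208.96 on day 4, and it was 0 in all 4 low sides.

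The edge of the high side fell at different levels by day. On the authors' scale, the natural log of 1 plus counts per 10000, the lowest high-side cell was at 1.16 on day 1, 0.533 on day 2, 0.0831 on day 3 and 0.269 on day 4. The highest middle cell lay just under it, at 1.06, 0.452, 0.0818 and 0.230. In the middle group 25 cells (14.5%) had a read, but unevenly by day: 28.6% on day 1 (43.96 CPM), 46.7% on day 2 (29.4 CPM), 4.11% on day 3 (0.372 CPM) and 16.7% on day 4 (1.97 CPM). The middle group was thus nearly without Btg2 on days 3 and 4 only.

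Radial glia of the Hes5_GFP group had the lowest share of cells with Btg2 among its 3 classes. There 36.2% of RGCs had a Btg2 read (95% exact interval 32.2% to 40.3%), against 89.3% of IPCs (82.5% to 94.2%) and 57.8% of ENs (42.2% to 72.3%). The mean over sort days of the summed level was 99.7 CPM ± 34.5 (SD, n = 4 days) in RGCs, 497.8 ± 47.5 (n = 3) in IPCs and 162.4 ± 69.3 (n = 2) in ENs. The ranges of days of RGCs and IPCs did not overlap. Those of RGCs and ENs did, through RGCs of day 2 (149.5 CPM), a day without a value for ENs. On the days with both, ENs lay above RGCs, at 113.3 against 79.6 CPM on day 3 and 211.4 against 74.04 on day 4. In the CAG_mRFP group the shares pooled over days were 69.6% of IPCs, 32.1% of ENs and 25% of RGCs, but on day 4 the share in RGCs (50%) exceeded that in ENs (27.6%). By level CAG_mRFP RGCs lay above ENs, at 163.5 CPM ± 2.65 (SD, n = 3 days) against 90.4 ± 53.1 (n = 3). These RGC values rest on few cells: 3 of 13 had a read on day 1, 6 of 39 on day 3 and 8 of 16 on day 4. The RGCs of day 3 were also of low complexity, with a median of 1327 genes detected, against 3163 on day 1 and 3463 on day 4. Within the ranked cells 43.1% of the cells in G2M had a read, 33.1% of those in G1 and 25.7% of those in S phase. By summed level pooled over days the order differed, with 107.3 CPM in G1, 77.04 in G2M and 53.1 in S phase. That order was not held by day: the levels were 120.9, 74.4 and 8.27 CPM on day 3. On day 4 they were 53.5, 73.3 and 69.5 CPM, with G1 lowest. Cluster 3 stood at 54.3% of cells and 97.96 CPM, cluster 0 at 33.6% and 64.6 CPM, and cluster 1 at 32.2% and 89.6 CPM. Clusters 0 and 1 changed order by level, at 41.8 and 106.3 CPM on day 3 and 65.9 and 47.4 on day 4.

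**Figure D1:**
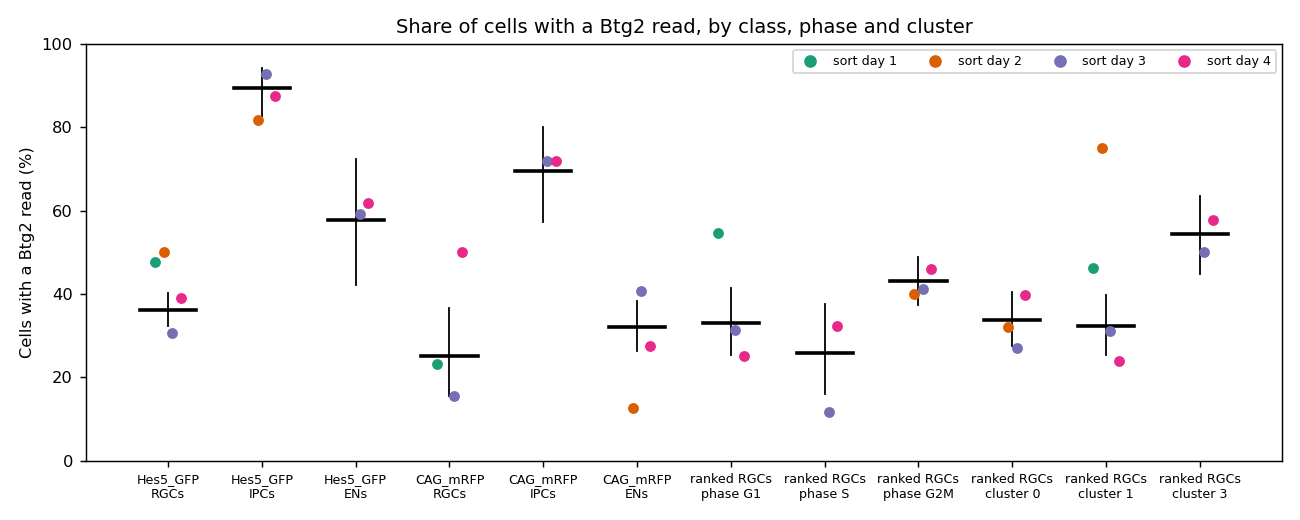
Share of cells with a Btg2 read (percent, vertical axis) for the authors' classes and, within the ranked radial glia, for phases and clusters. Bars are all cells with the 95% exact interval of counting error, and points are sort days with at least 10 cells; IPCs of the Hes5_GFP group lie highest (89.3%), and radial glia in S phase lie at 25.7%.

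No gene passed the comparison of the sides. The counts of each gene were summed per day and side and tested with edgeR's quasi-likelihood test with the sort day as a block. None of 10284 genes had a Benjamini-Hochberg adjusted p under 0.05 (0%), and 69 had an unadjusted p under 0.05 (0.671%). With the plate within sort day as the unit and the cells ranked again within each plate, which gives 10 pairs, again none passed, and 2.98% of 10258 genes had an unadjusted p under 0.05. Of the 10 plates 8 came from days 3 and 4. Values over plates count plates of one day as separate units, so their p-values and SEs do not measure the spread between sort sessions. DESeq2 on the sums per day and side called 9 genes (0.0875%), described further on. A gene was higher in the high side on all 4 days in 5.74% of cases and lower on all 4 days in 5.06%. Each day counts about equally in this fit, whether it holds 5 or 76 cells a side. So the values of days 3 and 4, are given beside the fit over 4 days, a choice made after the data had been seen.

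On days 3 and 4 the high side held more cells in G2M and fewer in S phase. The share of G2M cells was 69.9% in the high side, 52.1% in the middle and 54.8% in the low side on day 3. On day 4 it was 71.1%, 56.4% and 53.9%. On day 1, by contrast, none of the 5 high-side cells was in G2M and all were in G1, and on day 2 the share was 30.8% in the high side and 69.2% in the low side. In the plate of day 2 ranked alone, with 9 cells a side, the share was 44.4% in the high side and 77.8% in the low side. The mean difference over 4 days was -6.57 percentage points ± 27.2 (SD, n = 4; exact two-sided sign-flip p = 0.625; the smallest p that 4 days allow is 0.125).

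The S phase share lay lower in the high side on 3 days and level on day 2. It was 2.74% against 12.3% on day 3, 11.8% against 18.4% on day 4, 0% against 20% on day 1 and 30.8% in both sides on day 2. In the plate of day 2 ranked alone, with 9 cells a side, it was 11.1% against 22.2%. The mean difference was -9.04 points ± 8.33 (SD, n = 4; exact sign-flip p = 0.25), and without day 1 it was -5.39 points. Over the 10 plates it was -8.29 points, lower in 7 and higher in none (exact sign-flip p = 0.0156, 0.141 after adjustment over the 9 cell features examined). This p counts plates of the same day as separate units, 8 of them from days 3 and 4. Pooled over days, 15 high-side cells (8.98%, 95% exact interval 5.11% to 14.4%) were in S phase, against 28 low-side cells (16.8%, 11.4% to 23.3%) and 27 middle cells (15.6%).

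Cluster membership differed in a similar way by day. Cluster 3 held 39.7% and 34.2% of the high side on days 3 and 4 and 23.3% and 17.1% of the low side. Day 1 had no cell of cluster 3 in either side, and on day 2 there was none in the high side and 7.69% in the low side. In the plate of day 2 ranked alone, with 9 cells a side, the order turned, with 22.2% in the high side and 11.1% in the low side. Cluster 0 lay lower in the high side on 4 of 4 days, by 24.9 points on average (exact sign-flip p = 0.125, the smallest possible). On days 3 and 4 only the difference was -6.77 points, and with the tied cells in another order it was lower on 3 days and higher on 1 (exact sign-flip p = 0.25). Since clusters and phases were drawn from the genes of the same cells, these shares describe the sides. Median genes detected per cell on days 3 and 4 were 3798 and 3972.5 in the high side and 3254 and 3878 in the low side.

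**Figure D2:**
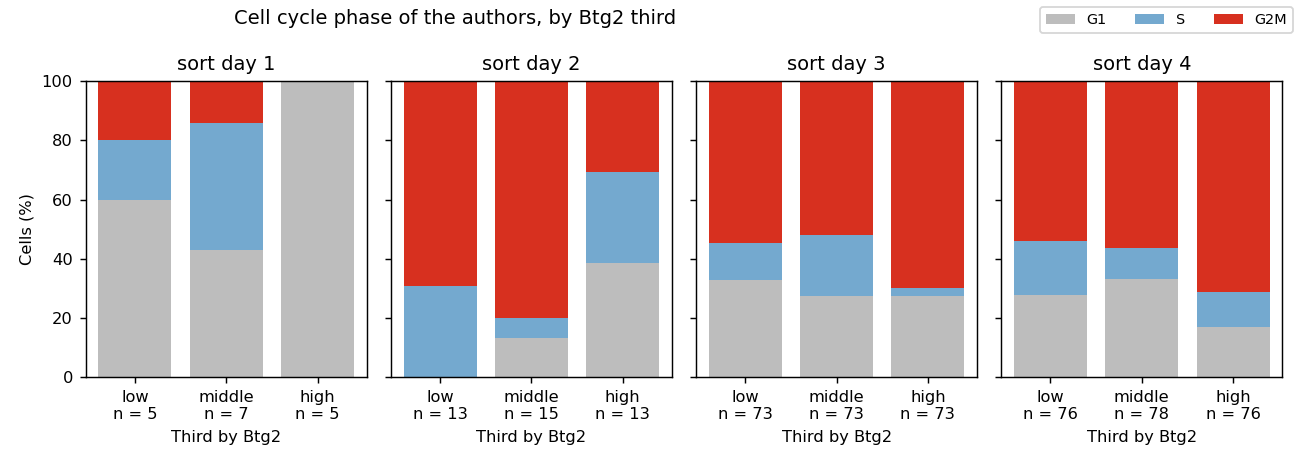
Percent of cells in G1, S and G2M by the authors' call (vertical axis, stacked to 100) in the low, middle and high groups of each sort day, with cell numbers under the bars. On days 3 and 4 the G2M part of the high side (69.9% and 71.1%) exceeds that of the other groups; on days 1 and 2 it is smaller.

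Genes of G2 and mitosis differed between the sides in step with those shares. On day 3, 49 of the 52 listed genes had a log2 ratio above 0 (median 0.47, with 1 CPM added to both sides), and on day 4 there were 48 (median 0.49). The median over all genes tested was 0.00 on both days. The middle group against the low side gave -0.14 and 0.13 for the same list. On day 1 the list's median was -3.88 and on day 2 it was -0.61. In the fit over 4 days none of the 52 passed, 10 were above 0 and the median was -0.48, beside 0.05 over all genes, of which 52.3% were above 0. Without day 1 the fit gave a median of 0.10, with 30 of 52 above 0. Fitted on days 3 and 4 only, 51 of 52 were above 0 (median 0.52), and none passed.

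Ccnb1, the cyclin that drives entry into mitosis, was at 1742 CPM in the high side and 1067 in the low side on day 3, and at 1472 and 730.8 on day 4. On day 1 it was at 0 in the high side and 490 in the low side. Cdc20, an activator of the anaphase-promoting complex, was at 1037 against 580.9 CPM on day 3 and 740 against 428.03 on day 4. For Ccnb1 the log2 ratio over days 3 and 4 was 0.86 ± 0.11 (SE) and for Cdc20 0.81 ± 0.12, both with an edgeR adjusted p of 0.431. Ube2c, the ubiquitin-conjugating enzyme of that complex, gave 0.87 ± 0.13 and the mitotic kinase gene Plk1 0.85 ± 0.14 (adjusted p = 0.488 for both). These 4 were picked after their values were seen.

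Of the 52 G2/M genes, 3 were higher in the high side on every day and 1 was lower. Rangap1, which activates the GTPase Ran and sits at kinetochores in mitosis, was at 60.999, 62.1, 246.2 and 180 CPM in the low side of days 1 to 4 and at 106.2, 266.5 (day 2), 432.6 and 364.4 in the high side. Its log2 ratio was 1.18 ± 0.36 (SE). Aurkb, the kinase of the chromosomal passenger complex, gave 0.81 ± 0.30 and Ckap2, a spindle protein gene that p53 also regulates, 1.15 ± 0.48. These were the 3 of 52 that were higher on 4 days, which is 5.77% beside 5.74% over all genes. Tmpo was the 1 that was lower on 4 days (1.92%, beside 5.06% over all genes), with a log2 ratio of -1.64 ± 0.96. For Rangap1 and Aurkb the middle group was also above the low side (log2 ratios 1.15 and 1.25), and the high side against the middle group gave -0.00 and -0.49. Mki67, present in cycling cells, was at 403.3 against 334.1 CPM on day 3 and 395.4 against 286.5 on day 4, at 0 against 88.3 on day 1 and at 46.8 against 88.3 on day 2.

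Genes of S phase were mostly below 0, as those of G2/M were in the fit over 4 days, and the lists parted in sign on days 2, 3 and 4. Over 4 days 11 of 40 were above 0 (median -0.32) and none passed. None was higher on all 4 days and 9 were lower on all 4 days, a share of 22.5% beside 5.06% over all genes. The medians of days 1 to 4 were -0.19, 0.15 (24 of 40 above 0), -0.48 and -0.37. On days 3 and 4 the middle group against the low side gave 0.04 and 0.09. Pcna, the sliding clamp of DNA polymerase, was at 649.4, 1055, 960 and 1086 CPM in the low side of days 1 to 4 and at 421.7, 1113, 510 and 708.8 in the high side. It was lower in 3 of 4 days and in 9 of 10 plates. Its log2 ratio was -0.52 ± 0.23 (SE) over days and -0.56 ± 0.14 over plates (edgeR adjusted p = 1 in both). Ccne2, the cyclin of the G1 to S transition, gave -1.24 ± 0.57, and the replication-linked ATPase gene Atad2 -0.59 ± 0.29.

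Ranking within phase narrowed both patterns. When cells were ranked by Btg2 within each sort day and phase, the G2/M median was 0.26 on day 3 and 0.16 on day 4 (42 and 43 of 52 above 0), and the S phase median -0.30 and -0.16 (8 and 13 of 40 above 0). Over 4 days the medians were 0.05 and 0.07, at the all-gene value of 0.08. How the authors assigned phases is not given in the sources used here, and the genes used for it may be among those listed.

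**Figure D3:**
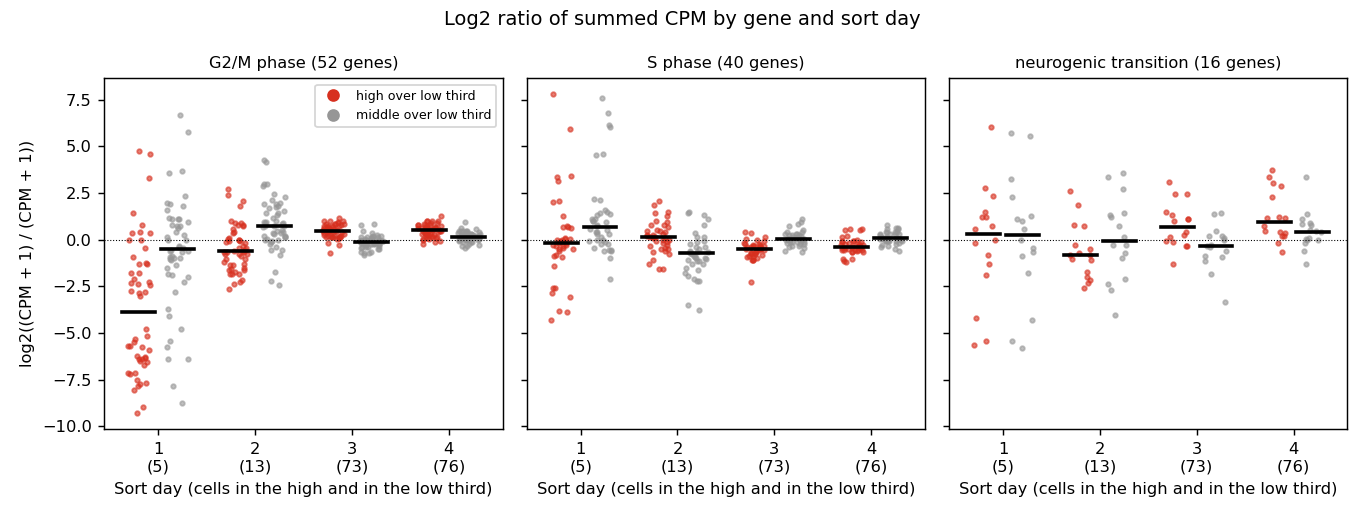
Log2 ratio of summed CPM (1 CPM added to both terms, vertical axis) for each listed gene by sort day, with cells per side in brackets. Red points are the high over the low side, grey points the middle over the low side, and black bars medians; the G2/M medians are 0.47 and 0.49 on days 3 and 4 and -3.88 on day 1.

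Among genes of the neurogenic transition, Dll1 and Gadd45g were higher in the high side on 3 of 4 days, without passing the test. Dll1, a Notch ligand shown by progenitors that are leaving the cycle of self-renewal, was at 32.3, 24.1, 5.61 and 1.09 CPM in the low side of days 1 to 4 and at 222.2, 4.02, 34.5 and 26.2 in the high side. It was higher in the high side on days 1, 3 and 4 and lower on day 2, so the sides overlapped across days. Its log2 ratio was 2.29 ± 1.57 (SE) over days and 3.87 ± 1.13 over plates, where it was higher in 9 of 10 (edgeR adjusted p = 1 in both). The pair that went the other way was the plate of day 2.

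The share of cells with a Dll1 read was 20.4% of the high side (34 cells, 95% exact interval 14.5% to 27.3%), 7.78% of the low side (13 cells, 4.21% to 12.9%) and 7.51% of the middle group (13 cells). Thinned to 50000 counts per cell, which left out 20 cells of lower depth, the shares were 17.7% and 6.41%. By day they were 60% against 40%, 15.4% in both, 20.5% against 6.85%, and 18.4% against 5.26%.

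Gadd45g, a growth arrest gene of newborn intermediate progenitors, was at 70.6, 35.9, 20.4 and 6.25 CPM in the low side and at 196.6, 7.35, 51.7 and 71.8 in the high side. Like Dll1 it was higher on days 1, 3 and 4. The log2 ratio was 1.18 ± 1.20 over days and 2.51 ± 0.86 over plates, where 8 of 10 were higher (edgeR adjusted p = 1 in both). Unlike for Dll1, the plate of day 2 was among the higher pairs, at 62.5 against 25.4 CPM. The 2 lower pairs were plates of days 3 and 4. Reads were found in 42 high-side cells (25.1%), 27 low-side cells (16.2%) and 24 middle cells (13.9%).

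Neurog2, the proneural factor of cortical progenitors, was at 17.7, 0.241, 1.37 and 2.51 CPM in the low side and at 42.5, 0, 18.8 and 24.5 in the high side (log2 ratio 1.89 ± 1.85). It had a read in 27 high-side cells (16.2%), 16 middle cells (9.25%) and 11 low-side cells (6.59%). Hes6, an antagonist of Hes1, was at 136.99 against 103.2 CPM on day 3 and 154.5 against 68.1 on day 4, but at 29.9 against 111.99 on day 1 and 36.3 against 64.5 on day 2. Its shares of cells with a read were 52.1% in the high side, 40.1% in the low side and 42.2% in the middle group. Insm1, which drives the formation of basal progenitors, had a read in 15 high-side cells and in 3 cells each of the low side and the middle group. Eomes was found in 15 high-side, 8 low-side and 2 middle cells. It was at 54.8, 5.06, 9.05 and 0.0364 CPM in the low side and at 47.6, 0, 20.6 and 7.37 in the high side. It was thus lower in the high side on days 1 and 2 (log2 ratio 0.48 ± 2.72).

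As a list, 24 neurogenic genes were in the table and 16 were abundant enough to be tested. Over 4 days 11 of the 16 were above 0 (median 0.09, all genes 0.05), none passed, none was higher on 4 days, and only Elavl3 was lower on 4 days. The medians by day were 0.28, -0.82, 0.69 and 0.95. Ranked within phase, 8 of 16 were above 0 on day 1 (median -0.02), 5 on day 2 (-0.60), 12 on day 3 (0.67) and 15 on day 4 (1.24). The fit over 4 days of that ranking gave 9 of 15 above 0 and a median of 0.13, beside 0.08 over all genes. In cells of G1 only, which left days 3 and 4, 13 of 16 were above 0 (median 1.56, all genes 0.02). Tcf12, a partner of proneural factors, gave 1.43 ± 0.70 over 4 days. Sox11, abundant in young neurons, gave -0.36 ± 0.31.

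Of the intermediate progenitor markers 6 of 10 were tested and 5 were above 0 (median 0.59). The summed level of all 10 was 131.7 CPM in the high side (15.7 to 351.4 by day), 71.1 in the low side (30.97 to 256.7) and 83.3 in the middle group (6.12 to 366.95). The days of the 3 groups overlapped. The summed level of 15 cortical neuron markers was 381.4 CPM in the high side and 395.7 in the low side, and Tubb3, a neuronal tubulin gene, gave a log2 ratio of 0.88 ± 0.72. The part of cells carrying intermediate progenitor transcripts in the values of the other neurogenic genes was not tested.

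**Figure D4:**
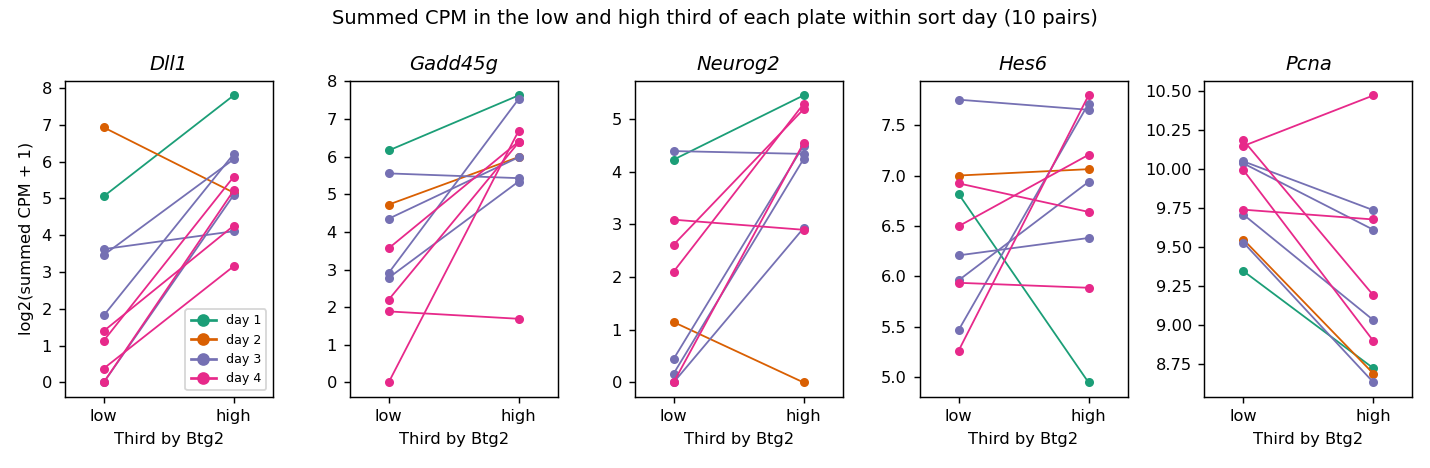
Summed expression, as log2(CPM + 1), in the low and the high side of each plate within sort day (10 joined pairs, coloured by day) for 4 neurogenic genes and Pcna. Dll1 is higher in the high side in 9 of 10 pairs and Pcna lower in 9 of 10; neither passed the test over all genes.

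In the fit over 4 days the median of radial glia markers was near that of all genes. That of Notch receptors and targets was further below 0, but less so over plates. Neither list held a gene that passed. The summed radial glia markers were at 5851 CPM in the high side, 5808 in the middle and 6454 in the low side, with overlapping days. Of 14 tested, 5 were above 0 (median -0.13) and none passed. Sox9, a transcription factor that maintains radial glia, was at 897, 976, 700 and 478.9 CPM in the low side and at 1434, 1353, 736 and 426.8 in the high side. Its log2 ratio was 0.26 ± 0.22 (SE), higher on 3 of 4 days but in 5 of 10 plates. Pax6 gave 0.36 ± 0.41. It had a read in 99.4% of high-side and 92.2% of low-side cells. Ddah1, an enzyme gene among the markers, gave -0.34 ± 0.27 and was lower in 9 of 10 plates.

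Hes1 and Hes5, the repressors that Notch induces, gave -0.58 ± 0.48 and -0.80 ± 0.64. Each was lower in the high side on 3 of 4 days. Over plates Hes1 gave -0.40 ± 0.34 and was lower in 7 of 10. Hes5 gave 0.04 ± 0.42 over plates, higher in 5 and lower in 5. Reads of Hes5 were found in 50.3% of high-side and 46.7% of low-side cells, those of Hes1 in 64.7% and 70.1%. Hes5 was at 137.2, 182.9, 39.9 and 76.2 CPM in the low side and at 51.5, 57.9, 66.2 and 44.4 in the high side. Of 9 Notch receptors and targets tested 3 were above 0 (median -0.54, beside 0.05 over all genes), and on days 3 and 4 the list's medians were -0.12 and -0.30. Over plates the list's median was -0.08, beside 0.03 over all genes. The sorting reporter eGFP, driven by the Hes5 promoter of the plasmid, gave 0.81 ± 0.32 and mRFP gave 0.54 ± 0.32. On day 4 both reporters were lower in the high side. None of these passed.

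Gene groups tied to the other known inducers of Btg2 had medians near that of all genes in the fit over 4 days. Of 26 p53 targets tested, 11 were above 0 (median -0.05) and none passed. The median of the p53 targets moved with the setting. Without day 1, 18 of 23 were above 0 (median 0.37, all genes 0.06), and none passed. With the tied cells in another order 18 of 24 were above 0 (median 0.40, all genes 0.05). In G1 cells only, 18 of 22 were (median 1.08, all genes 0.02). Ranked within phase, 7 of 26 were (median -0.77, all genes 0.08). With every cell at 0 in the low side, 11 of 24 were (median -0.08, all genes -0.13). Cdkn1a, the cyclin-dependent kinase inhibitor p21, was at 265.9, 13.2, 14.7 and 9.67 CPM in the low side and at 454.4, 28.6, 2.25 and 2.09 in the high side. Mdm2, the ubiquitin ligase of p53, gave -0.18 ± 0.38 and Ccng1, another p53 target, 0.65 ± 0.55. Day 1 stood out for these genes in both sides, with Ccng1 at 734 and 761 CPM there against 27.3 to 193.9 on the other days.

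Of 16 immediate early genes tested, 8 were above 0 (median -0.02). Fos had a read in 7 high-side cells, 2 low-side cells and 7 middle cells, Egr1 in 8, 9 and 13. Ier2 was found in 79 high-side and 73 low-side cells, with a log2 ratio of 1.92 ± 1.79. Of 11 heat shock and stress genes 4 were above 0 (median -0.10). Of 13 transcripts encoded in mitochondria 3 were above 0 (median -0.21), and 4 were lower on all 4 days, a share of 30.8% beside 5.06% over all genes. The median mitochondrial percentage per cell was 1.28% in the high side and 1.34% in the low side (means over days; exact sign-flip p = 0.625).

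The family and complex of Btg2 itself showed no shared shift. Of 14 genes of the BTG/TOB family and the CCR4-NOT complex, 9 were above 0 (median 0.21 over 4 days and 0.05 on days 3 and 4), and none passed. Btg1, its nearest relative, had a read in 80.2% of high-side and 70.1% of low-side cells, with a log2 ratio of -0.23 ± 0.46. Of 15 regulators of G1, 6 were above 0 (median -0.30). Ccnd1 and Ccnd2, the cyclins that drive G1 and that BTG proteins are known to repress, gave 0.19 ± 0.31 and 0.03 ± 0.18. Ccnd2 was at 2572 against 2353 CPM on day 3 and 2360 against 1738 on day 4, but lower in the high side on days 1 and 2.

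Genes with one direction on all 4 days and the smallest unadjusted p were named by rule, 12 in each direction, none of which passed. Their values on these days chose them, and the plates hold cells of the same days. Counts of days or plates for these genes therefore describe the choice and are no separate support. Higher in the high side were Rangap1, Tbl1xr1, Sh3bp4, Dennd6a, Ep300, Aurkb, Zfp641, Ocrl, Pik3r3, Sema5b, Acvr2a and Tia1. Tia1, an RNA-binding protein gene, was at 122.2, 119.2, 295.4 and 345.1 CPM in the low side and 201.6, 249.3, 393.6 and 484.4 in the high side (log2 ratio 0.67 ± 0.27). Ep300, a histone acetyltransferase gene, gave 1.80 ± 0.67 and had a read in 49 high-side and 30 low-side cells. Sema5b, a semaphorin gene, gave 1.31 ± 0.52. Tbl1xr1, a part of the NCoR corepressor complex, gave 3.09 ± 1.05, with reads in 45 against 24 cells, and was higher in 9 of 10 plates. Zfp641 had reads in 4 against 2 cells, so its fitted ratio rests on single cells.

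Lower in the high side were Donson, Slbp, Lix1, Ets2, Zbtb14, Usp37, Unc5d, Abcc10, Phb, Rnf145, Fat4 and Cdc7. Donson, Slbp and Cdc7 act in S phase, as a replication fork factor, the binding protein of histone mRNA stem-loops and a kinase of replication origins. Donson was at 85.4, 351.2, 102.2 and 87.3 CPM in the low side and 4.76, 18.1, 34.5 and 39.8 in the high side. Its log2 ratio was -2.78 ± 0.85 over days and -1.54 ± 0.53 over plates, lower in 9 of 10 plates. Slbp gave -0.87 ± 0.27, Cdc7 -1.03 ± 0.41, and Usp37, a deubiquitinase gene that acts at the entry to S phase, -0.90 ± 0.31. Lix1 gave -0.96 ± 0.31 and the mitochondrial prohibitin gene Phb -1.14 ± 0.41. Ets2, Unc5d and Abcc10 had reads in 5, 5 and 7 low-side cells and in 0, 3 and 1 high-side cells.

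Against the middle group, which held Btg2 reads on days 1 and 2, 3 of the genes ranked higher (Rangap1, Aurkb and Pik3r3) and 3 of the 10 ranked lower that had a value (Phb, Rnf145 and Cdc7) took the opposite sign.

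The 9 genes that DESeq2 called were Sh3bp4, Zfp641 and Pmaip1 as higher and Ets2, Spryd3, Gab2, Slc35d1, Dgki and Nfatc2ip as lower. They rested on few cells: between 2 and 21 cells had a read in the low side and 0 to 18 in the high side. For Pmaip1, a p53 target gene of the BH3 family, the mean over days was 54.8 CPM in the low side and 30.6 in the high side, against the sign of the fit. Ets2 had no read in the high side, and its pooled level was at least 227.8-fold lower there, against a floor of 3 counts over the side. In edgeR's fit all 9 had an adjusted p of 1.

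**Figure D5:**
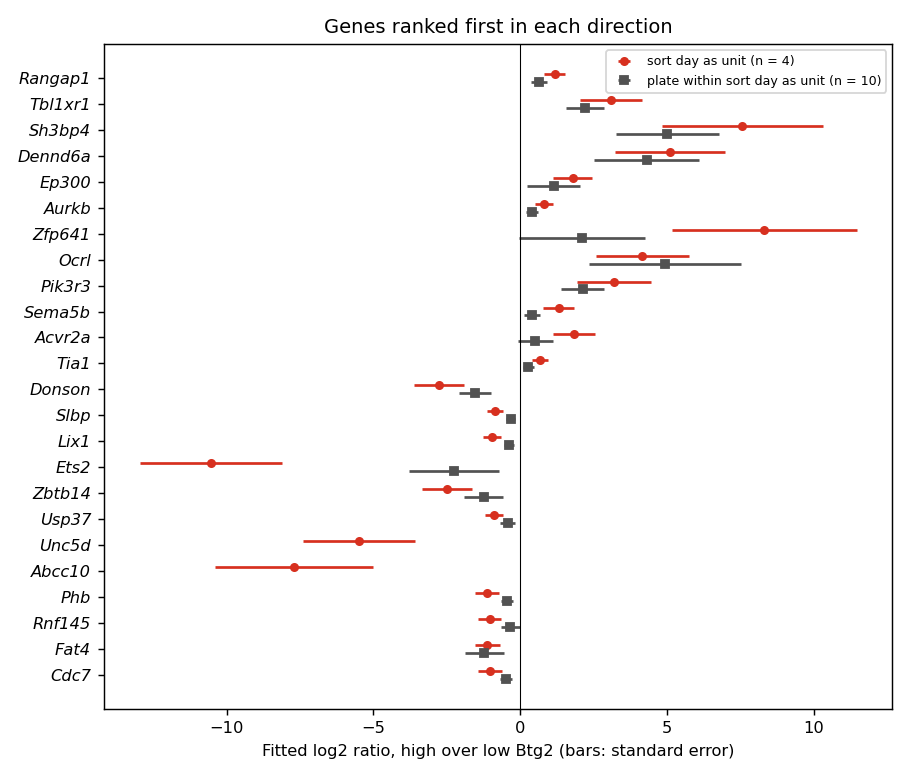
Fitted log2 ratio of the high over the low side (horizontal axis, bars are standard errors) for the genes ranked first in each direction, with the sort day (red, n = 4) or the plate within sort day (grey, n = 10) as unit. Values over plates are nearer to 0 for most genes; Unc5d and Abcc10 have no value over plates, and the point of Ets2, without reads in the high side, depends on the prior count of the fit.

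The same ranking was made in cells that the choice did not use, the Hes5_GFP IPCs, which gave 14 cells a side on day 3 and 21 on day 4. Here the low side was not free of Btg2: 11 of 14 and 13 of 21 cells had a read, at 125.9 and 97.02 CPM, against 1000.4 and 1132 in the high side. None of 9880 genes passed (0%; edgeR, 2.56% with an unadjusted p under 0.05). Dll1 was at 91.9 and 75.02 CPM in the low side and 196.4 and 320 in the high side (log2 ratio 1.59 ± 0.48). Gadd45g was at 414.6 and 598.1 in the low side and 798 and 1297 in the high side (1.03 ± 0.23). Both genes were thus higher on both days in IPCs, with an adjusted p of 1. Dll1 had a read in 9 high-side and 8 low-side cells of day 3, and in 14 and 7 of day 4. Other genes went the other way, with Neurog2 at -0.39 ± 0.88, Sox11 at -0.71 ± 0.14 and Eomes at -0.05 ± 0.34. Of the neurogenic list, 10 of 16 genes were above 0 in IPCs (median 0.22, all genes 0.08).

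Other genes took different values in IPCs. Pax6 was at 64.96 and 45.7 CPM in the low side and 399.3 and 227.7 in the high side (2.47 ± 0.42), and 11 of the 12 radial glia markers tested were above 0 (median 1.42, all genes 0.08). Tubb3 was at 624.2 and 818 CPM in the low side and 430 and 333.2 in the high side (-0.92 ± 0.30). Of 52 G2/M genes 6 were above 0 (median -0.49). The difference of the Btg2 contrast between IPCs and radial glia was tested as an interaction, and none of 10272 genes passed (0%; edgeR, 2.44% with an unadjusted p under 0.05). For Dll1 it was -0.70 ± 1.84 and for Pax6 2.10 ± 0.67, both with an adjusted p of 1.

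CAG_mRFP RGCs of the same clusters reached 15 cells on day 4 only, so their values carry no test. With 5 cells a side, Btg2 was at 468.2 CPM in the high side and 0 in the low side. Gadd45g was at 111.03 against 50.5 CPM and Dll1 at 0 in both, in 0 of 5 cells on each side. Pcna was at 1309 against 866 CPM there, above its low side, unlike in the Hes5_GFP radial glia of that day.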

How the data were processed

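The authors deposited estimated counts, rounded to whole numbers, for 16839 genes, a table of the natural log of 1 plus counts per 10000, and a cell table with class, cluster, phase, sort date and mitochondrial fraction. Per the submitters' processing notes, HISAT2, Seurat 2 and mm10 were used; the counting tool is not given in the sources used here. Of 564 Hes5_GFP RGCs 507 were ranked and 334 compared, 167 a side, with 173 in the middle group. Counts were summed per sort day and side and tested with edgeR 4.0.16 (R 4.3.3, total counts as library size, sort day as block, genes of at least 5 summed CPM in either side, Btg2 left out of the adjustment, threshold 0.05). Both sides came from the same sessions, which pairs them by day but not by plate. Cell features used an exact sign-flip test over days. Alternatives used DESeq2 1.42.0 and limma 3.58.1. The fits were also run on simulated sums drawn without differences between days. Those results are not given here, so the smallest fold that the fits could detect is not stated. The genes named were 23 always given, the 12 ranked first in each direction (at least 20 CPM, one direction on every day) and up to 4 of each list. The members and lists were chosen with earlier results of these data known. No cell was removed, and no doublet caller was run on the sorted wells. Intervals cover counting error only.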

Additional observations from a re-analysis of the deposited data

Results flagged for a closer look

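Of 89 sets of values over days or plates examined, 3 held a value far from the others; chance gives about 1 in 20. The high side minus the low side in median total counts per cell was -461790 on the plate of day 1, far from the other 9 plates. The log2 ratio of Elavl3, a neuronal RNA-binding protein gene, was -4.20 on day 1. For Cdkn1b, the cyclin-dependent kinase inhibitor p27, it was 3.07 on day 1. Day 1 holds 5 cells in each side.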

How the results depend on the processing

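No gene passed the edgeR test in any of the alternatives run with edgeR or limma, and DESeq2 called 9. Without the block for sort day (the pairing of sides within a session), 0 genes were called and 1.32% of 10284 had an unadjusted p under 0.05. Leaving out each sort day in turn gave 0 calls; for IPCs this leaves 1 day and could not be fitted. The alternatives with days 3 and 4 only, the middle against the low group, another order of ties, the authors' normalized values and the plates of days 3 and 4 were chosen after seeing the data. Among cell features, days 3 and 4 only gave -8.00 points for G1, 16.1 for G2M and -10.0 for cluster 1. Over plates the S share was -8.29 points, the G2M share 2.27 points and the median total count -54824, and with cells of at least 50000 counts the median mitochondrial percentage was 0.0121 points higher. Leaving out each day in turn gave -14.5 to 4.06 points for G2M, -12.1 to -5.39 for S, -31.9 to -17.8 for cluster 0, -136980 to 291420 for the median total count, -97.8 to 148.5 for median genes detected and -0.118 to 0.0203 points for the mitochondrial percentage. The log2 ratios that changed sign or, with DESeq2, passed the threshold follow by alternative; the cause was not tested. With DESeq2, the values were Sh3bp4 7.76, Zfp641 8.58, Ets2 -9.38, Ccnd2 -0.0203, Pmaip1 8.11. With days 3 and 4 only, the values were Hes6 0.80, Sox9 -0.0466, Mdm2 0.11, Ier2 -0.000742, Btg1 0.41, Mki67 0.37, mRFP -0.13, Ccnb1 0.86, Cdc20 0.81, Plk1 0.85, Sox11 0.26, the G2/M phase median 0.52. Over plates, the values were Hes6 0.44, Hes5 0.0447, Ccng1 -0.61, Egr1 0.39, Btg1 0.10, mRFP -0.0508, Cdc20 0.23, Plk1 0.0838, the G2/M phase median 0.0342. For the high side against the middle group, the values were Rangap1 -0.00268, Aurkb -0.49, Pik3r3 -0.26, Phb 0.0729, Rnf145 0.23, Cdc7 0.31, Neurog2 -0.46, Hes6 0.49, Hes1 0.18, Pax6 -0.86, Cdkn1a 0.96, Mdm2 0.87, Ccnd2 -0.0584, Ddah1 0.49, Cdkn1b -0.0728, Cdc20 1.17, Ube2c -0.71. In G1 cells only, the values were Tia1 -0.14, Slbp 0.0394, Fat4 0.0438, Cdc7 0.10, Hes6 1.07, Pax6 -0.18, Cdkn1a 0.27, Mdm2 1.37, Ier2 -0.17, Btg1 1.10, Mki67 2.34, Ckap2 -1.38, Atad2 0.10, Cdkn1b -0.34, Ccnb1 0.31, Sox11 0.30, the neurogenic transition median 1.56. For the middle group against the low side, the values were Fat4 0.0772, Eomes -6.08, Gadd45g -0.89, Sox9 -0.10, Ccng1 -0.0573, Fos -4.34, Mki67 0.89, Ccnd1 -0.0623, mRFP -0.66, Elavl3 0.54, Pmaip1 -9.59, Plk1 0.14, Sox11 0.0437, the G2/M phase median 0.0584, the S phase median 0.0907. With limma on the mean CPM of cells, the values were Eomes -0.078, Ccng1 -0.19, Ccnd2 -0.0267. Ranked within phase, the values were Eomes -0.36, Ccng1 -0.15, Mki67 0.63, Plk1 0.46, the G2/M phase median 0.046, the S phase median 0.0674. With the days split at the median rank, the values were Hes6 0.32, Cdkn1a 0.0533, Fos -0.0418, Mki67 0.26, Ccnd1 -0.18, Plk1 0.15. Without the replicate block, the values were Hes6 0.0413, Cdkn1a 0.68, Mki67 0.0849, Pmaip1 -0.84, Ccnb1 0.15, Cdc20 0.14, Plk1 0.32. Over the plates of days 3 and 4, the values were Hes6 0.76, Hes5 0.20, Sox9 -0.0385, Cdkn1a 0.47, Ccng1 -0.35, Ier2 -0.044, Btg1 0.29, Mki67 0.22, mRFP -0.19, Ccnb1 0.48, Cdc20 0.49, Plk1 0.44, Sox11 0.0815, the G2/M phase median 0.33. With ties in another order, the values were Hes1 0.0248, Cdkn1a 0.54, Mdm2 0.60, Ube2c -0.38. With every cell at 0 in the low side, the values were Pax6 -0.46, Mdm2 0.14, Fos -0.10, Ube2c -0.30. Ranked within cluster, the values were Cdkn1a 0.047, Mki67 0.48, Ccnd1 -0.10, Cdkn1b -0.0252, Plk1 0.39. With limma on the authors' normalized values, the values were Cdkn1a 0.0341, Ccng1 -0.20, Pmaip1 -0.11, Cdc20 0.17. With cells thinned to 50000 counts, the values were Ccng1 -0.42, Btg1 0.45, Ccnd2 -0.11. With TMM factors, Ccnd2 gave -0.036. Leaving out each sort day in turn gave the ranges Eomes -1.08 to 2.03, Hes6 -0.78 to 0.26, Pax6 -0.0645 to 0.63, Mdm2 -0.35 to 0.16, Btg1 -0.47 to 0.0618, Ccnd2 -0.11 to 0.14, Ccnb1 -2.05 to 0.16, Plk1 -1.21 to 0.57, the G2/M phase median -0.95 to 0.10, the neurogenic transition median -0.19 to 0.57. Depth limits rare transcripts: Btg2, Dll1 and Neurog2 were read in a minority of cells, and a cell without a read may hold the transcript. The sort days differ in cell number and depth, and the low side holds an arbitrary part of the cells at 0.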
